A study of Mus musculus with 12 samples.

Results

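Expression of 9 genes for mesenchymal transcription factors and HMGA chromatin proteins was followed in mouse pancreatic stellate cells (PSCs), the fibroblast-like cells of the pancreas. The genes were *Hmga1*, *Hmga2*, *Snai1*, *Snai2*, *Twist1*, *Twist2*, *Zeb1*, *Zeb2* and *Prrx1*, taken by symbol from a count table of 39179 genes, and all 9 had enough counts to be tested in every comparison. PSCs of the C57BL/6 strain that expressed mCherry were kept for 72 h in Minimal Medium alone (mono-PSCs), with EGFP-labelled pancreatic cancer cells (PCCs) in a 2-way culture (2W-PSCs), or with PCCs and TagBFP-labelled macrophages (MØs) in a 3-way culture (3W-PSCs). Each culture gave 4 libraries, made after the PSCs had been sorted as cells with mCherry and without EGFP or TagBFP signal. The total number of cells was the same in every culture, so added cell types also took the place of PSCs or of PCCs. The study's list of cell lines gives the PSCs as 1 clone immortalised with SV40, the PCCs as a mouse pancreatic cancer line, and the MØs as the RAW264.7 line. The PSC clone was shared by all cultures, and nothing in the labels says that the 4 libraries of a culture came from separate isolations. P-values here therefore measure the spread between libraries. Levels are CPM, counts scaled to a common library total after TMM normalisation, and since the 3′ kit yields about 1 fragment per transcript, levels of different genes can be compared without a length correction.

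SNAIL, TWIST and ZEB proteins are DNA-binding factors best known for the epithelial-mesenchymal transition (EMT), in which epithelial cells lose junctions and gain migratory, fibroblast-like features. SNAIL and ZEB proteins are zinc finger factors that bind E-boxes and repress epithelial genes, TWIST proteins are basic helix-loop-helix factors, and PRRX1 is a homeodomain factor of mesenchymal tissue. Fibroblasts carry many of these factors without being of epithelial origin. HMGA1 and HMGA2 are small proteins that bind the minor groove of AT-rich DNA through AT-hooks, are abundant in the embryo and in many tumours, and are low in most adult tissues.

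Binding sites of microRNAs in the 3′ untranslated regions (3′ UTRs) are shown first, because *Hmga2* is a textbook target of the let-7 family and *Zeb1* and *Zeb2* are textbook targets of the miR-200 family. A site is the exact complement of the seed, bases 2 to 8 of the microRNA, which is in capitals in the RefSeq mature sequences of let-7a, miR-200b and miR-200a below.
mmu-let-7a-5p: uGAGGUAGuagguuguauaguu
mmu-miR-200b-3p: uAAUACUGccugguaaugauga
mmu-miR-200a-3p: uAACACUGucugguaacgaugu
The let-7 seed was shared by 11 mature mouse microRNAs, the miR-200b seed by 3 and the miR-200a seed by 2. Mature microRNAs were not measured here, so the sites describe sequence and not use.

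The longest annotated 3′ UTR of *Hmga2* (3014 bases) held 4 let-7 sites, printed here in transcript order from the minus strand of GRCm38 with the site in capitals. They lie at chr10:120364219-120364243, chr10:120362982-120363006, chr10:120362544-120362568 and chr10:120361686-120361710.
Hmga2 site 1: gacattcaatttCTACCTCagcatc
Hmga2 site 2: cactcctcaataCTACCTCtgaatg
Hmga2 site 3: atttgcaaggaaCTACCTCcacact
Hmga2 site 4: caaaacacactaCTACCTCttaagt
A site of this kind was present in 9.02% of the 21039 mouse 3′ UTRs searched. *Snai1* held 2 such sites in 731 bases, *Hmga1* 1 in 1183 bases and *Prrx1* 1 in 4891 bases. *Twist1*, *Twist2*, *Snai2*, *Zeb1* and *Zeb2* held none.

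The 3′ UTR of *Zeb2* (4941 bases) held 5 miR-200b sites and 4 miR-200a sites, and that of *Zeb1* (2401 bases) held the same numbers. The 5 miR-200b sites of *Zeb2* are printed from the minus strand of GRCm38, at chr2:44988168-44988192, chr2:44988103-44988127, chr2:44987741-44987765, chr2:44987656-44987680 and chr2:44987522-44987546, with the site in capitals.
Zeb2 site 1: actaccatacatCAGTATTttatta
Zeb2 site 2: actacagtgcatCAGTATTacgatt
Zeb2 site 3: aagcacccgtgtCAGTATTagacga
Zeb2 site 4: cattaattttgtCAGTATTacacca
Zeb2 site 5: tactgtagtgtaCAGTATTatagtt
Of the 3′ UTRs searched, 13.3% held a miR-200b site and 17.2% a miR-200a site. *Hmga1*, *Snai1* and *Snai2* held 1 miR-200b site each, *Snai2* also held 1 miR-200a site, and *Hmga2*, *Twist1*, *Twist2* and *Prrx1* held neither.

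Promoter windows, the 250 bases before the annotated start in RefSeq on GRCm38.p6, were found for 7 of the 9 genes. *Snai2* and *Zeb1* had no entry. The window of *Snai1* (chr2:167537945-167538194, plus strand) is printed because it holds the E-box CACCTG, the kind of element that SNAIL proteins bind, starting at −126 and given in capitals.
Snai1 promoter: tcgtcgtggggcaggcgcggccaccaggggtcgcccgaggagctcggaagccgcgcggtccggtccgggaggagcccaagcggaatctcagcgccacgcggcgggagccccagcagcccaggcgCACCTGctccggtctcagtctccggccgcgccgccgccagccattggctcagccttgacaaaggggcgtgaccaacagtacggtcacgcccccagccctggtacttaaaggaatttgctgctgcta
The E-box letters CACCTG or CAGGTG, which are the same element on either strand, occurred in 17.1% of 27025 promoter windows of this length. The window of *Hmga2* (chr10:120476470-120476719, minus strand) is printed for its runs of C and T.
Hmga2 promoter: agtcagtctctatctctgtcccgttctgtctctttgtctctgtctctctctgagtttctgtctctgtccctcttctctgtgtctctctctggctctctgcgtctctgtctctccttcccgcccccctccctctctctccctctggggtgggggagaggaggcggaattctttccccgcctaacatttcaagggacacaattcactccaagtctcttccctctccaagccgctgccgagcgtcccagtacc
Of its bases 70.8% were C or T, against a median of 50% over all windows, and 0.407% of the windows had a share at least as high. This measure was chosen after the sequence had been seen, and the share is given as a description. STAT (TTCNNNGAA), NF-κB and AP-1 (TGANTCA) motifs, searched on both strands and present in 7.18%, 3.75% and 6.87% of the windows, were not found in the windows of *Hmga1*, *Hmga2*, *Snai1*, *Twist1*, *Twist2* or *Prrx1*. *Zeb2* has several annotated starts. Overlapping windows of this gene held the same STAT motif, and another window held AP-1 motifs. A looser NF-κB pattern was tried first and was replaced because it matched too large a share of all windows.

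Library totals ranged from 4561817 to 8093368 counts, and *Gm26924* alone took 10.1% to 17.9% of them. In a principal component analysis of all genes tested, replicate 2 of the 2W-PSCs lay apart from the other libraries, and values for the 9 genes that it moved most are given with and without it. Markers of PSCs were present in all libraries, where 10 such genes summed to 4890 to 9072 CPM in mono-PSCs, 8282 to 8650 in 2W-PSCs and, in 3W-PSCs, 5397 to 6425. Desmin (*Des*), a classical stellate cell marker, never exceeded 25 counts and lumican (*Lum*) never exceeded 7.

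In 3W-PSCs, 7 of the 9 genes were expressed more highly than in mono-PSCs, led by the HMGA genes and *Snai1*. *Hmga1* was 12.3-fold higher, *Hmga2* 10.1-fold and *Snai1* 7.39-fold, whereas *Prrx1*, *Zeb2*, *Twist1* and *Twist2* were 2.45-fold, 2.07-fold, 1.64-fold and 1.38-fold higher. *Snai2* and *Zeb1* did not pass the test. *Hmga1*, counted in the 7, had enough counts for this test only through the 3W-PSCs. A gene was called where edgeR's quasi-likelihood test gave a p under 0.05 after Benjamini-Hochberg adjustment over all genes, and this comparison called 26.4% of 11551 genes, 13.4% higher and 13.0% lower. The median log2 fold change was 1.05 over the 9 genes and 0.012 over all genes tested.

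Against mono-PSCs, 1 of the 9 genes was called in 2W-PSCs, *Hmga2*, which was 3.54-fold higher. This comparison called 0.991% of 11199 genes, 0.839% higher and 0.152% lower. The median log2 fold change of the 9 genes was 0.44, against 0.020 over all genes, and 3 of them (*Hmga2*, *Twist1* and *Prrx1*) had an unadjusted p under 0.05.

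Between 3W-PSCs and 2W-PSCs, which differ by the MØs and by the share of cells that were PSCs and PCCs, 3 of the 9 genes were called and all were higher in 3W-PSCs, namely *Hmga1* (14.7-fold), *Hmga2* (2.89-fold) and *Prrx1* (1.78-fold). The share called was 10.7% of 11513 genes, 5.73% higher and 4.95% lower, and the medians were 0.63 over the 9 genes and 0.0025 over all genes. Without replicate 2 of the 2W-PSCs, 6 of the 9 genes were called, against 18.0% of 11736 genes, with *Snai1* and *Zeb2* added as higher and *Snai2* as lower in 3W-PSCs. *Hmga1*, counted in the 3 and in the 6, had enough counts for these tests only through the 3W-PSCs. The comparisons share libraries and are given side by side.

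**Figure D1:**
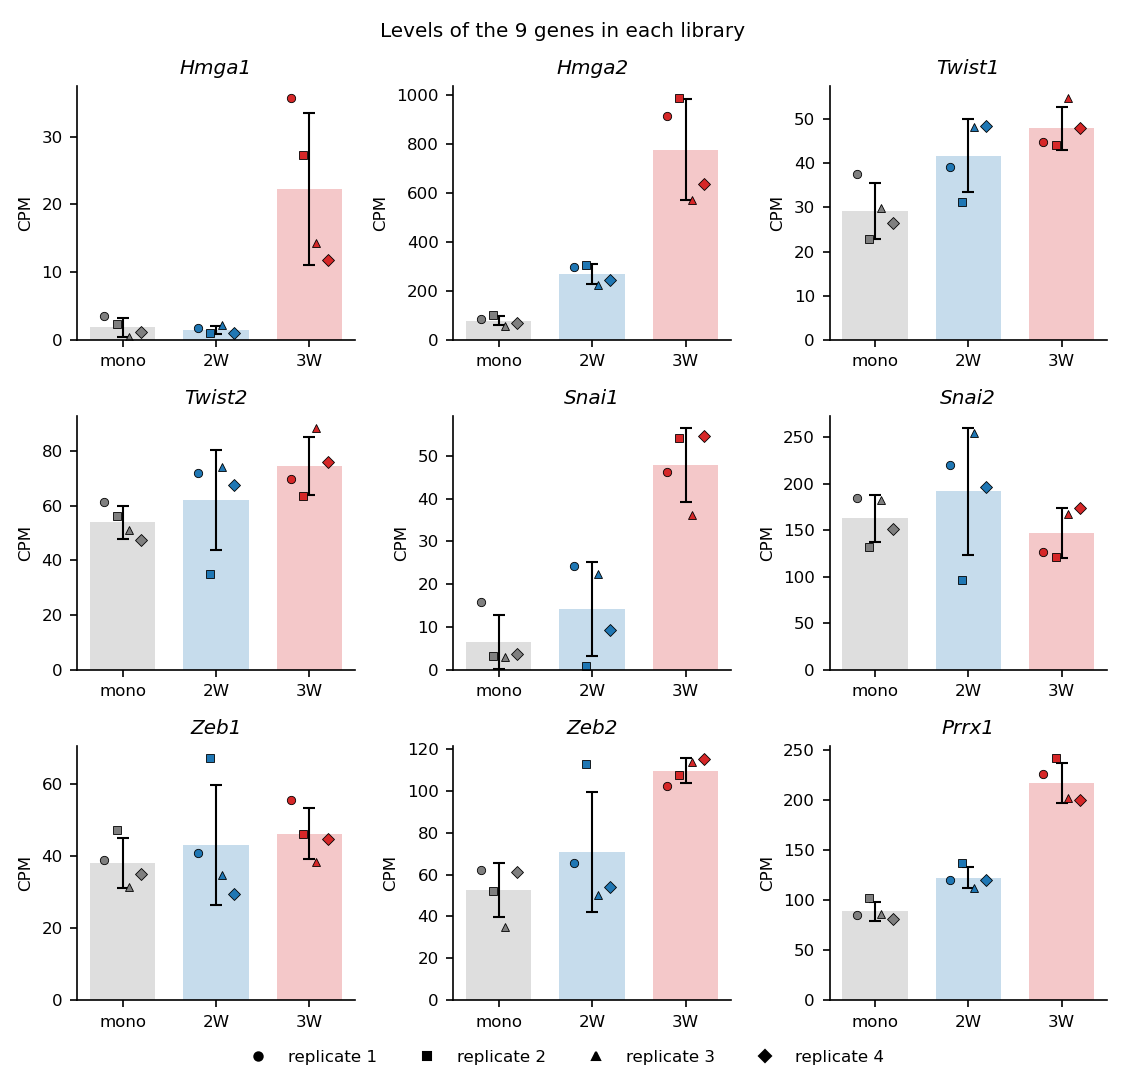
Level of each of the 9 genes in CPM (vertical axes, each starting at 0) in the 12 libraries, by culture. Bars are means, error bars are SD with n = 4, and symbols are libraries by replicate number. The 3W-PSC libraries of *Hmga1*, *Hmga2*, *Snai1* and *Prrx1* lie above all others, and replicate 2 of the 2W-PSCs is the lowest of its culture for *Snai1*, *Twist2* and *Snai2* and the highest for *Zeb1* and *Zeb2*.

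*Hmga2* (ENSMUSG00000056758, chr10:120361275-120476469, minus strand of GRCm38) was the most abundant of the 9 genes in 3W-PSCs. The levels were 84.2, 99.3, 56.0 and 68.6 CPM in replicates 1 to 4 of the mono-PSCs. They were 297, 306, 225 and 245 CPM in 2W-PSCs and 914, 987, 571 and 635 CPM in 3W-PSCs. The 3 cultures did not overlap, and their order was mono-PSCs, 2W-PSCs, 3W-PSCs, with means of 77.0 ± 18.8, 268 ± 39.2 and 777 ± 204.5 CPM (SD, n = 4).

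Both steps of *Hmga2* were called. The log2 fold change was 1.82 ± 0.222 (SE) between 2W-PSCs and mono-PSCs (adjusted p = 0.00107, edgeR) and 1.53 ± 0.216 between 3W-PSCs and 2W-PSCs (adjusted p = 0.00144, edgeR). Between 3W-PSCs and mono-PSCs it was 3.33 ± 0.223 (adjusted p = 1.06e-08, edgeR). By level, *Hmga2* stood between place 1863 and 3089 of all genes in mono-PSCs, between 419 and 665 in 2W-PSCs and between 67 and 157 in 3W-PSCs. An exact two-sided permutation test of mean log2 CPM gave p = 0.0286 for each comparison, the smallest that 4 libraries against 4 allow.

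*Hmga1* (ENSMUSG00000046711, chr17:27556497-27563674, plus strand), whose protein has the same kind of AT-hooks, was close to the limit of detection outside the 3-way culture. Counts in replicates 1 to 4 were 20, 12, 2 and 9 in mono-PSCs (3.48, 2.38, 0.360 and 1.08 CPM). In 2W-PSCs they were 12, 4, 14 and 6 (1.68, 0.982, 2.22 and 0.958 CPM). In 3W-PSCs they were 269, 235, 112 and 91 (35.7, 27.3, 14.2 and 11.8 CPM), and all 4 libraries lay above the other 8.

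*Hmga1* had a log2 fold change of 3.62 ± 0.476 (SE) against mono-PSCs (adjusted p = 2.35e-05, edgeR) and 3.88 ± 0.452 against 2W-PSCs (adjusted p = 0.000473, edgeR). For 2W-PSCs against mono-PSCs it was −0.26 ± 0.688 (adjusted p = 0.999, edgeR), with overlapping libraries. How the counting treated reads that match more than 1 place in the genome is not stated, so the level of *Hmga1*, and any ratio to it, is uncertain to that extent. On the opposite strand its exons overlap *AI413582* and *Gm49774*, by 102 and 22 bases, and those of *Hmga2* overlap *1700006J14Rik* by 140 bases.

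MØ and epithelial markers moved with the cultures. The 12 MØ markers summed to 1.91 to 7.93 CPM in mono-PSCs, 4.34 to 11.5 in 2W-PSCs and, in 3W-PSCs, 14.6 to 51.1. The 12 epithelial markers summed to 0.601 to 2.43 CPM in mono-PSCs, 76.2 to 148 in 2W-PSCs and, in 3W-PSCs, 56.0 to 96.0. These genes were near 0 in mono-PSCs, and those with enough counts to be tested had them only through the co-cultures, so no count of calls is given for them. *Adgre1*, which encodes F4/80, and *Cldn4* had no count in any library, and *Epcam* had at most 3 counts.

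Within 3W-PSCs, the libraries with the most *Hmga1* and *Hmga2* were not those with the most MØ marker counts. Replicates 1 to 4 had MØ sums of 21.3, 14.6, 19.3 and 51.1 CPM and epithelial sums of 82.0, 64.7, 56.0 and 96.0 CPM, where *Hmga1* was at 35.7, 27.3, 14.2 and 11.8 CPM. Between mono-PSCs and 2W-PSCs, the epithelial sums and *Hmga2* were both higher in 2W-PSCs without overlap, and *Hmga1* overlapped. Cells with EGFP or TagBFP signal, the labels of PCCs and MØs, had been left out in the sort. The part of PCC or MØ RNA in the results for the 9 genes was not tested. In bulk samples, more cells expressing a gene and more RNA per cell cannot be told apart.

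**Figure D2:**
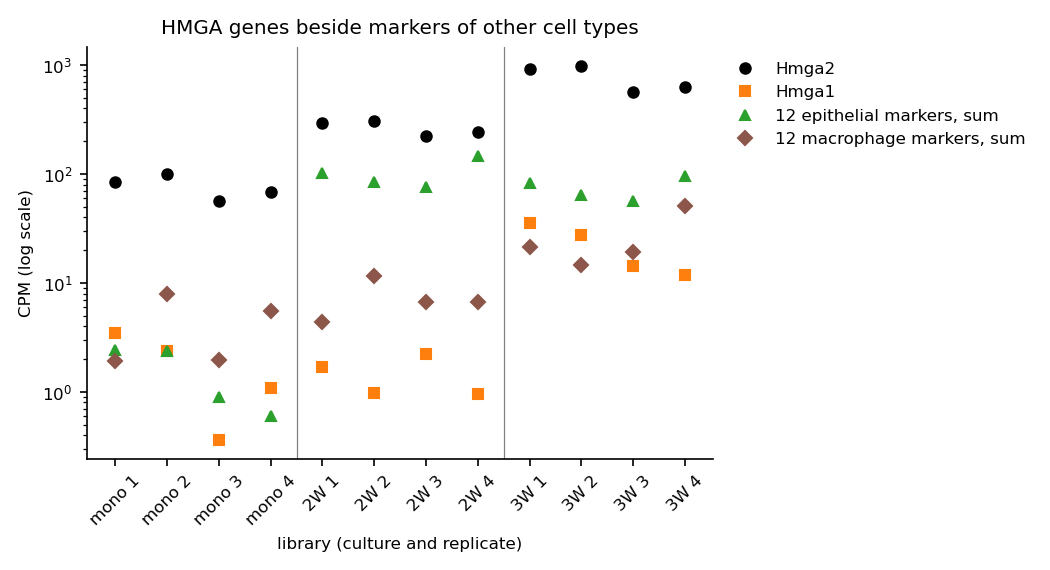
CPM on a log scale of *Hmga2*, *Hmga1* and the sums of 12 epithelial and 12 MØ markers, for each of the 12 libraries along the horizontal axis. Epithelial marker sums and *Hmga2* are higher in all 2W-PSC than in all mono-PSC libraries, and *Hmga1* is at 11.8 CPM or more in the 3W-PSC libraries and at 3.48 CPM or less in the others.

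*Snai1* (ENSMUSG00000042821, chr2:167538195-167542814, plus strand) encodes SNAIL, the short-lived zinc finger repressor of *Cdh1*. Its levels were 15.8, 3.17, 3.06 and 3.73 CPM in replicates 1 to 4 of the mono-PSCs. In 2W-PSCs they were 24.2, 0.982, 22.4 and 9.26 CPM, the widest spread of the 9 genes in that culture relative to the mean, and in 3W-PSCs 46.2, 54.1, 36.3 and 54.7 CPM. All 3W-PSC libraries lay above the other 8, and mono-PSCs and 2W-PSCs overlapped.

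*Snai1* differed by a log2 fold change of 2.89 ± 0.401 (SE) between 3W-PSCs and mono-PSCs (adjusted p = 4.41e-05, edgeR). Replicate 1 of the mono-PSCs, the highest of its culture, lowered this value, which was 3.82 without it (adjusted p = 2.8e-09, edgeR). Between 3W-PSCs and 2W-PSCs it was 1.72 ± 0.565 and did not pass the test (adjusted p = 0.0765, edgeR). Replicate 2 of the 2W-PSCs had 4 *Snai1* counts, and without it the value was 1.35 ± 0.269 (adjusted p = 0.00273, edgeR). In 2W-PSCs against mono-PSCs it was 1.17 ± 0.741 (adjusted p = 0.9, edgeR), 1.54 without replicate 2 of the 2W-PSCs and 2.11 without replicate 1 of the mono-PSCs, and not called in either (adjusted p = 0.223 and 0.417, edgeR).

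*Snai2* (ENSMUSG00000022676, chr16:14705852-14709385, plus strand), which encodes the related repressor SLUG, was the most abundant of the 9 genes in mono-PSCs and was not called in any comparison of all 8 libraries. Its levels were 185, 133, 183 and 151 CPM in mono-PSCs. In 2W-PSCs they were 220, 96.5, 255 and 196 CPM, and in 3W-PSCs 127, 121, 168 and 174 CPM, so that all cultures overlapped. The log2 fold change was −0.15 ± 0.169 (SE) between 3W-PSCs and mono-PSCs (adjusted p = 0.545, edgeR).

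Against 2W-PSCs, *Snai2* had a log2 fold change of −0.39 ± 0.267 (SE) in 3W-PSCs (adjusted p = 0.396, edgeR). Without replicate 2 of the 2W-PSCs, its lowest library, the value was −0.61 ± 0.162 (adjusted p = 0.0171, edgeR). The ratio of *Snai2* to *Snai1* counts was 11.7 to 59.8 in mono-PSCs (median 41.2), 9.09 to 98.2 in 2W-PSCs (median 16.3) and 2.24 to 4.62 in 3W-PSCs (median 2.96). The ratios of 3W-PSCs lay below those of all other libraries, although *Snai2* stayed the more abundant of both genes in every library.

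*Twist1* (ENSMUSG00000035799, chr12:33957671-33959829, plus strand) and *Twist2* (ENSMUSG00000007805, chr1:91801461-91848028, plus strand) encode related basic helix-loop-helix factors of mesoderm and bone, and both rose modestly in 3W-PSCs. *Twist1* was at 37.6, 22.8, 29.9 and 26.6 CPM in mono-PSCs. The 2W-PSCs had 39.1, 31.2, 48.3 and 48.4 CPM, and the 3W-PSCs 44.8, 44.2, 54.8 and 48.1 CPM. The 3W-PSCs lay above all mono-PSCs, and 2W-PSCs overlapped both.

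*Twist1* had a log2 fold change of 0.71 ± 0.185 (SE) in 3W-PSCs against mono-PSCs (adjusted p = 0.00853, edgeR). The value for 2W-PSCs against mono-PSCs was 0.54 ± 0.232 (adjusted p = 0.612, edgeR), and that for 3W-PSCs against 2W-PSCs 0.20 ± 0.187 (adjusted p = 0.549, edgeR). Without replicate 2 of the 2W-PSCs these became 0.64 (adjusted p = 0.226, edgeR) and 0.080 (adjusted p = 0.781, edgeR).

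*Twist2* was at 61.2, 56.1, 50.9 and 47.5 CPM in mono-PSCs. It was at 71.9, 34.9, 74.1 and 67.4 CPM in 2W-PSCs, where replicate 2 was far below the others, and at 69.7, 63.6, 88.3 and 76.0 CPM in 3W-PSCs. The log2 fold change between 3W-PSCs and mono-PSCs was 0.46 ± 0.160 (SE; adjusted p = 0.0413, edgeR), and this call held in only 6 of the 14 alternative analyses. It was lost when any 1 of 6 of the 8 libraries was left out, among them replicate 3 of the 3W-PSCs (0.37, adjusted p = 0.129, edgeR). *Twist2* shares 1477 exonic bases with *Gm29100* on the opposite strand, and the strand setting of the counting is not stated.

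*Zeb2* (ENSMUSG00000026872, chr2:44983632-45117395, minus strand) encodes a zinc finger and homeodomain repressor of E-cadherin, and its level was higher in 3W-PSCs. Mono-PSCs had 62.3, 52.3, 34.7 and 61.4 CPM. The 2W-PSCs had 65.7, 113, 50.3 and 54.3 CPM, and 3W-PSCs had 102, 107.7, 114 and 115 CPM. All 3W-PSCs lay above the mono-PSCs, and of the 2W-PSCs only replicate 2 reached their range.

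*Zeb2* showed a log2 fold change of 1.05 ± 0.180 (SE) between 3W-PSCs and mono-PSCs (adjusted p = 0.000332, edgeR) and 0.44 ± 0.285 between 2W-PSCs and mono-PSCs (adjusted p = 0.905, edgeR), the latter 0.12 without replicate 2 of the 2W-PSCs (adjusted p = 0.969, edgeR). Between 3W-PSCs and 2W-PSCs it was 0.63 ± 0.241 (adjusted p = 0.12, edgeR), and without replicate 2 of the 2W-PSCs 0.95 ± 0.144 (adjusted p = 0.000368, edgeR). Exons of *Zeb2* overlap those of *Zeb2os* by 653 bases on the opposite strand.

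*Zeb1* (ENSMUSG00000024238, chr18:5591860-5775467, plus strand), the paralogue of *Zeb2*, was not called in any comparison. Its levels were 38.78, 47.2, 31.3 and 34.9 CPM in mono-PSCs. They were 40.8, 67.0, 34.8 and 29.5 CPM in 2W-PSCs and 55.5, 46.1, 38.4 and 44.6 CPM in 3W-PSCs. The cultures overlapped throughout, with log2 fold changes of 0.28 ± 0.179 (SE; 3W-PSCs against mono-PSCs, adjusted p = 0.271, edgeR), 0.20 ± 0.267 (2W-PSCs against mono-PSCs, adjusted p = 0.999, edgeR) and 0.10 ± 0.253 (3W-PSCs against 2W-PSCs, adjusted p = 0.831, edgeR). Without replicate 2 of the 2W-PSCs the last 2 became −0.10 (adjusted p = 0.97, edgeR) and 0.39 (adjusted p = 0.145, edgeR), and without replicate 4 of the 2W-PSCs the last was −0.048.

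The count ratio of *Zeb2* to *Zeb1* was 1.11 to 1.76 in mono-PSCs, 1.45 to 1.84 in 2W-PSCs and, in 3W-PSCs, 1.84 to 2.96, so that 3W-PSCs held the highest ratios. In replicate 2 of the 2W-PSCs both genes were high and the ratio lay within the range of its culture. The ratio of *Twist2* to *Twist1* overlapped between cultures, at 1.63 to 2.46, 1.12 to 1.84 and 1.44 to 1.61. That of *Hmga2* to *Hmga1* was 24.2 to 155.5 in mono-PSCs, 101 to 311 in 2W-PSCs and, in 3W-PSCs, 25.6 to 53.8, and the ratios of 2W-PSCs and 3W-PSCs did not overlap.

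**Figure D3:**
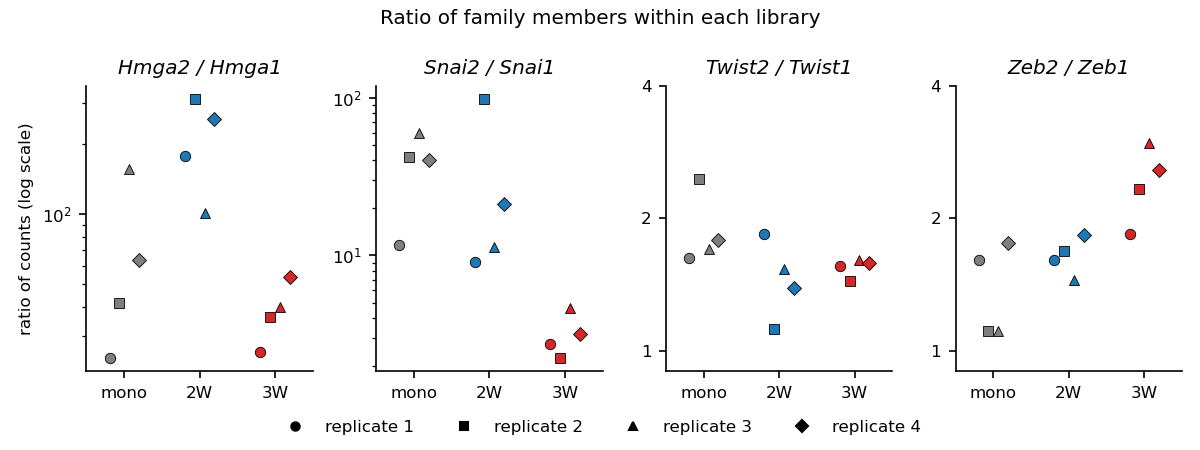
Ratio of the counts of paired family members in each library on log axes, by culture, with symbols for replicate numbers. The *Snai2* to *Snai1* ratio is at most 4.62 in the 3W-PSC libraries and at least 9.09 in all others, and the *Twist2* to *Twist1* ratios overlap.

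*Prrx1* (ENSMUSG00000026586, chr1:163245119-163313710, minus strand), a homeobox gene of limb and craniofacial mesenchyme and of fibroblasts, followed the order of *Hmga2* at a smaller scale. Mono-PSCs had 85.4, 102, 85.9 and 80.5 CPM. The 2W-PSCs had 120, 137, 112 and 119.9 CPM, and 3W-PSCs had 226, 241, 202 and 199.9 CPM. No culture overlapped another, and the SD within each was 9.39, 10.2 and 20.0 CPM around means of 88.5, 122 and 217 CPM (n = 4).

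The difference in *Prrx1* passed the test for 3W-PSCs against mono-PSCs (log2 fold change 1.29 ± 0.146 SE, adjusted p = 4.39e-06, edgeR) and for 3W-PSCs against 2W-PSCs (0.83 ± 0.148, adjusted p = 0.00576, edgeR). Between 2W-PSCs and mono-PSCs it was at 0.49 ± 0.174 and not called (adjusted p = 0.387, edgeR), although the libraries did not overlap (exact two-sided permutation test, p = 0.0286). Its paralogue *Prrx2*, named here after its values were seen, was at 18.7 ± 1.40 CPM in mono-PSCs, 32.97 ± 14.2 in 2W-PSCs and 18.9 ± 2.92 in 3W-PSCs (SD, n = 4) and was not called.

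**Figure D4:**
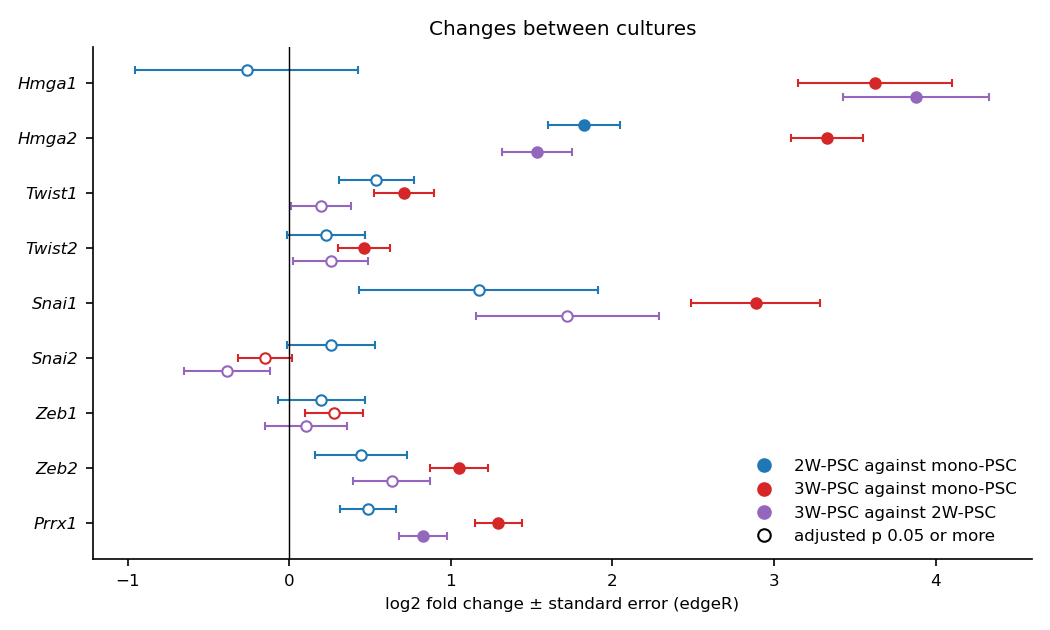
Log2 fold change (horizontal axis) with its standard error for each of the 9 genes in the 3 comparisons, from edgeR fits on 8 libraries each. Filled points have an adjusted p under 0.05 and open points do not. *Hmga2* is filled in all 3 comparisons, and *Snai2* and *Zeb1* are open in all 3.

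The genes most like each member were those with the highest Pearson correlation of log2 CPM over the 12 libraries among 8699 genes above a mean log2 CPM of 3, which left out *Hmga1*. For *Hmga2* they were *Ltbp2* (r = 0.99), a latent TGF-β binding protein gene, *Grem1* (r = 0.98), a BMP antagonist gene, and *Prrx1* (r = 0.97). For *Snai1* they were *Rbms1*, *Plac8* and *Ncs1* (r = 0.97 each), for *Prrx1* *Casp4*, *Ltbp2* and *Ddx60* (r = 0.98 each), and for *Zeb2* *Pdcd11*, *Pml* and *Csnk1g1* (r = 0.97 each). For the others the highest were *Rcbtb2* with *Snai2* (r = 0.96), *Tnfrsf12a* with *Twist2* (r = 0.94), *Id1* with *Twist1* (r = 0.93) and *Supt16* with *Zeb1* (r = 0.91). Among the 9 genes, *Snai2* had a correlation of −0.78 with *Zeb1*. These values describe 12 libraries that fall into 3 cultures and share replicate 2 of the 2W-PSCs as an extreme point.

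Other mesenchymal and EMT transcription factors followed the 9 genes in part. Of 25 tested, 3W-PSCs had 9 higher and 2 lower than mono-PSCs and 2 higher than 2W-PSCs, and 2W-PSCs had 3 higher than mono-PSCs. These are 44%, 8% and 12% of the list, against 26.4%, 10.7% and 0.991% of all genes. *Foxs1*, counted in the 44% and the 12%, had enough counts for its test against mono-PSCs only through the co-cultures. The same holds for *Foxf2*, counted in the 44%, through the 3W-PSCs (1.35 ± 1.59 CPM in mono-PSCs and 5.55 ± 2.01 in 3W-PSCs). *Runx1*, a RUNT domain factor of blood and mesenchyme, was at 29.8 ± 8.44 CPM in mono-PSCs, 67.8 ± 24.8 in 2W-PSCs and 144 ± 19.4 in 3W-PSCs, and its level in 3W-PSCs was called against both other cultures. *Etv4*, an ETS factor downstream of RAS and FGF signals, was at 6.71 ± 1.97, 25.7 ± 7.33 and 36.3 ± 4.48 CPM and was called in 2W-PSCs and in 3W-PSCs against mono-PSCs. *Foxc2*, a forkhead factor of mesoderm, was called in the same comparisons, at 5.13 ± 0.419, 13.8 ± 2.71 and 18.7 ± 1.30 CPM. *Gli3*, a HEDGEHOG pathway factor, was at 32.2 ± 2.80 CPM in 3W-PSCs and 16.6 ± 3.42 in 2W-PSCs, and *Foxs1* was called higher than in mono-PSCs in both co-cultures (0.330 ± 0.340 CPM in mono-PSCs, 9.22 ± 2.58 in 2W-PSCs and 7.30 ± 1.87 in 3W-PSCs). *Klf4*, a factor that opposes EMT in epithelial cells, fell from 452 ± 28.4 CPM in mono-PSCs to 144 ± 21.2 in 3W-PSCs (log2 fold change −1.66, adjusted p = 4.32e-07, edgeR), and *Osr1* fell from 144 ± 25.8 to 89.6 ± 26.4 CPM (all SD, n = 4).

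Of 20 corepressors and turnover factors of the SNAIL and ZEB proteins, 3W-PSCs had 3 higher and 1 lower than mono-PSCs, or 20% against 26.4% of all genes. *Loxl3*, a lysyl oxidase family gene whose protein binds SNAIL, was at 44.5 ± 1.68 CPM in 3W-PSCs and 14.5 ± 3.09 in mono-PSCs (adjusted p = 9.36e-06, edgeR). *Ctbp2*, a corepressor of ZEB proteins, was at 27.4 ± 3.87 against 15.5 ± 6.93 CPM, and *Fbxw7*, an ubiquitin ligase subunit, at 57.5 ± 12.5 against 35.6 ± 8.94 CPM. *Ajuba*, a LIM protein that links SNAIL to corepressors, was lower at 37.1 ± 6.86 against 78.4 ± 19.2 CPM (all SD, n = 4). edgeR called 0 of the 20 in the other comparisons, with 3 at an unadjusted p under 0.05 in each, and DESeq2 called 0 between 2W-PSCs and mono-PSCs and 1 between 3W-PSCs and 2W-PSCs. Over all genes, an unadjusted p under 0.05 in edgeR was found for 829 of 11199 between 2W-PSCs and mono-PSCs. Between 3W-PSCs and 2W-PSCs it was found for 3026 of 11513.

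Genes around the let-7 and *Hmga2* axis were a list of 12, of which 9 could be tested. LIN28 proteins block let-7 maturation, and IGF2BP proteins bind *Hmga2* and other let-7 target transcripts. *Lin28a* had no count in any library and *Lin28b* averaged 0.0751 CPM in mono-PSCs and 0.0580 in 3W-PSCs, both named after their values were seen. In 3W-PSCs against mono-PSCs, 3 genes rose and none fell by edgeR (5 and 0 at an unadjusted p under 0.05), and DESeq2 called 4, all higher. The edgeR share called, 33.3%, was near the 26.4% of all genes, of which 4418 of 11551 had an unadjusted p under 0.05. *Arid3a*, an ARID factor, was at 9.37 ± 3.42 CPM in mono-PSCs, 15.3 ± 3.49 in 2W-PSCs and 27.1 ± 4.21 in 3W-PSCs and was called against both. *Dicer1*, the microRNA processing enzyme, was at 27.3 ± 6.73 and 47.5 ± 7.46 CPM in mono-PSCs and 3W-PSCs, and *Zcchc11*, a uridyl transferase that acts on let-7 precursors, at 70.1 ± 11.6 and 96.5 ± 13.1 CPM (SD, n = 4). Between 2W-PSCs and mono-PSCs, where *Hmga2* was called, edgeR and DESeq2 each called 0 of the 9, with 1 at an unadjusted p under 0.05 in edgeR. Over all genes, edgeR gave 829 of 11199 at that threshold.

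Other high mobility group proteins carry different DNA-binding domains. Of 12 tested, edgeR called 3, all lower, in 3W-PSCs against mono-PSCs, and DESeq2 called the same 3. This is 25% of the list, near the 26.4% of all genes, of which 13.0% were lower. At an unadjusted p under 0.05, edgeR gave 6 lower and none the other way. Over all genes, 4418 of 11551 were under that threshold in either direction. *Hmgn1*, a nucleosome-binding protein gene, was at 1017 ± 179.6 CPM in mono-PSCs, 880 ± 62.3 in 2W-PSCs and 549 ± 60.2 in 3W-PSCs, and was the 1 gene of the list called between 3W-PSCs and 2W-PSCs. *Hmgn3* was at 133 ± 11.7 CPM in mono-PSCs and 89.4 ± 5.46 in 3W-PSCs, and *Hmgb2*, a bending protein of dividing cells, at 297 ± 45.1 and 215 ± 43.5 CPM (SD, n = 4). Between 2W-PSCs and mono-PSCs, edgeR and DESeq2 called 0, with 0 at an unadjusted p under 0.05 in edgeR.

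Epithelial genes that SNAIL and ZEB factors are known to repress were mostly too low to test, with 6 of 22 tested in 3W-PSCs against mono-PSCs. Their share called is not set against all genes, since *Cdh1* and *Dsp* could be tested only through the co-cultures. *Cdh1*, which encodes E-cadherin, was at 0.585 ± 0.413 CPM in mono-PSCs, 18.4 ± 10.7 in 2W-PSCs and 12.04 ± 5.49 in 3W-PSCs, and it was called against mono-PSCs in both. *Dsp*, which encodes desmoplakin, was at 0.120 ± 0.240 CPM in mono-PSCs and 4.39 ± 2.32 in 3W-PSCs. *Cldn1*, a tight junction gene, was lower in 3W-PSCs, at 0.573 ± 0.662 CPM against 15.7 ± 3.66 in mono-PSCs and 5.32 ± 2.64 in 2W-PSCs (SD, n = 4). *Cdh1* is also among the epithelial markers given above, whose sums moved in the same direction, and their part in these results was not tested.

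Mesenchymal genes of the EMT programme went both ways. Of 17 tested between 3W-PSCs and mono-PSCs, 5 were higher and 4 lower, and of 18 tested between 3W-PSCs and 2W-PSCs, 1 was higher and 7 were lower. These are 52.9% and 44.4% of the list, against 26.4% and 10.7% of all genes. *Fap*, counted in the 44.4%, had enough counts for that test only through the 2W-PSCs. *Pdgfra*, a growth factor receptor gene of fibroblasts, was at 6.80 ± 1.24 CPM in mono-PSCs, 14.4 ± 2.88 in 2W-PSCs and 34.6 ± 6.14 in 3W-PSCs. The periostin gene *Postn* was at 21.5 ± 9.76 CPM in mono-PSCs and 107.9 ± 19.7 in 3W-PSCs, and *Cdh11*, a mesenchymal cadherin gene, at 15.9 ± 4.18 in mono-PSCs, 82.2 ± 11.96 in 2W-PSCs and 47.6 ± 9.17 in 3W-PSCs. *S100a4*, a calcium-binding protein gene used as a fibroblast marker, was at 2216 ± 867, 1347 ± 235 and 449.8 ± 50.5 CPM in mono-PSCs, 2W-PSCs and 3W-PSCs, and was called lower in 3W-PSCs against both other cultures. *Fap*, the fibroblast activation protein gene, was at 0.307 ± 0.411 CPM in mono-PSCs, 4.94 ± 1.36 in 2W-PSCs and 0.328 ± 0.315 in 3W-PSCs, and in 3W-PSCs *Thy1* and *Tpm2* lay below mono-PSCs (40.7 ± 5.70 against 80.9 ± 5.47 CPM and 154 ± 9.55 against 297 ± 75.8 CPM; all SD, n = 4).

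**Figure D5:**
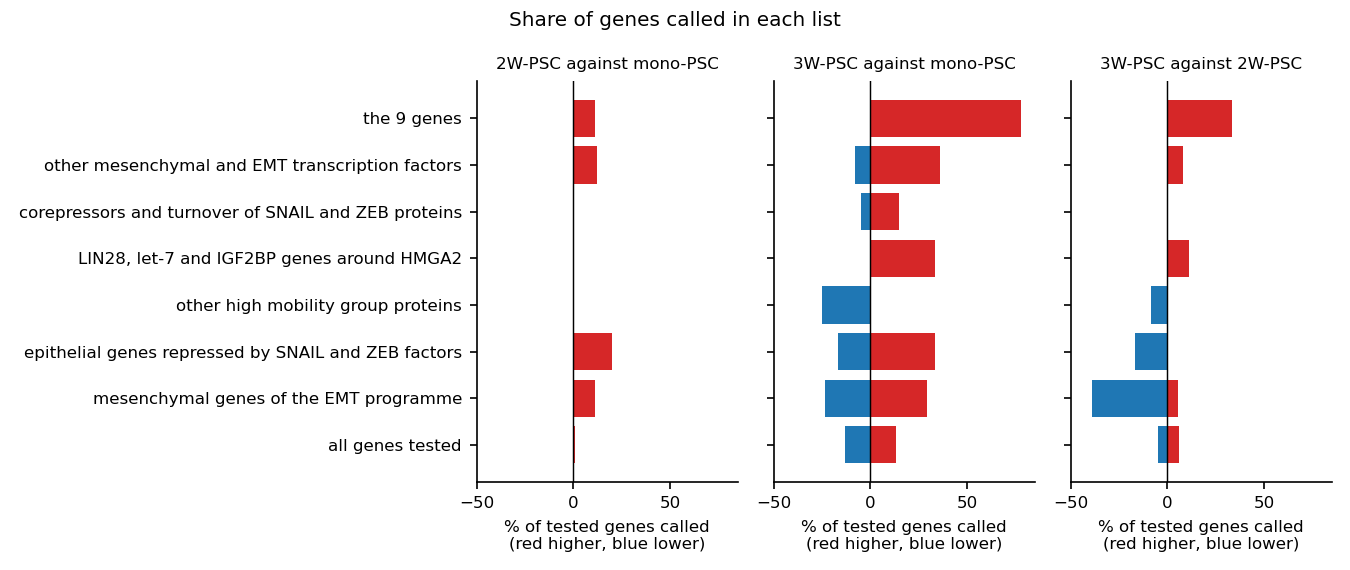
Share of the tested genes of each list called at an adjusted p under 0.05 (horizontal axis, percent), higher in red and lower in blue, for the 3 comparisons. The lists hold 5 to 25 tested genes and the bottom bar is all genes tested, and of the 9 genes 7 are called higher in 3W-PSCs against mono-PSCs. *Hmga1*, among these 7, had enough counts for that test only through the 3W-PSCs. The bars of the epithelial genes are not to be read against all genes, since *Cdh1* and *Dsp* could be tested against mono-PSCs only through the co-cultures.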

How the data were processed

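RNA of sorted PSCs was measured in 12 libraries, 4 for each of 3 cultures. The authors made QuantSeq 3′ FWD libraries, read single ends of 75 bases, mapped them with STAR to GRCm38 and summed them by Ensembl gene in featureCounts, and the deposited values are raw counts per gene. Molecular identifiers and the strand setting are not given in the sources used here, so counts may include PCR copies. The groups follow the GEO labels. The 9 genes and all gene lists were chosen with earlier results of these data known, so their counts are descriptions.

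Each pair of cultures was compared on its 8 libraries in edgeR 4.0.16 (R 4.3.3) with TMM scaling, filterByExpr, glmQLFit and glmQLFTest, with no covariate, and adjusted over all genes tested by the Benjamini-Hochberg method. A gene was called at an adjusted p under 0.05. The SE is the log2 fold change over the square root of F. Log2 CPM used a prior count of 2. Named genes were the 9 members, in each list up to 3 called genes per direction and comparison with the smallest adjusted p, the 3 genes most correlated with each member, and the marker genes. Positions and 3′ UTRs come from GENCODE release M21 on GRCm38, promoters and microRNAs from RefSeq. Tests were tried on simulated counts first. DESeq2 1.42.0 and other alternatives are given in the closing section. With totals of 4561817 to 8093368 counts per library, genes with fewer than about 20 counts, *Hmga1* outside 3W-PSCs among them, are measured with a large counting error.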

Additional observations from a re-analysis of the deposited data

Results flagged for a closer look

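In 2 of the 27 sets of 4 libraries (9 genes in 3 cultures), 1 library stood far from the other 3. Taken in log2 CPM, its gap to the nearest library, divided by the range of the set, was above the 95% critical value of Dixon's test. Chance gives about 1 in 20. *Twist2* was lowest in replicate 2 of the 2W-PSCs, at 34.9 CPM against 67.4 CPM in the next library (gap 0.873 of the range). *Snai1* was highest in replicate 1 of the mono-PSCs, at 15.8 CPM against 3.73 CPM in the next (gap 0.885 of the range).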

How the results depend on the processing

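Over 377 alternative values for the 9 genes, 362 kept direction and side of the threshold, 8 lost the call, 4 gained one and 3 turned sign. The turned values were uncalled in the main analysis: *Zeb1* between 2W-PSCs and mono-PSCs without replicate 2 of 2W-PSCs (−0.10), *Zeb1* between 3W-PSCs and 2W-PSCs without replicate 4 of 2W-PSCs (−0.048), and *Hmga1* between 2W-PSCs and mono-PSCs without replicate 1 of mono-PSCs (0.24). Leaving out each library in turn gave −0.10 to 0.33, −0.048 to 0.39 and −0.60 to 0.24 for these. All 8 losses were of *Twist2* between 3W-PSCs and mono-PSCs (adjusted p 0.0166 to 0.154 over 14 alternatives, edgeR or DESeq2). *Snai1* between 3W-PSCs and 2W-PSCs was called in 2 of 14 (0.00273 to 0.196), with no filter and without replicate 2 of 2W-PSCs. The calls of *Hmga2* in 3 comparisons, of *Hmga1* and *Prrx1* in both involving 3W-PSCs, and of *Snai1*, *Zeb2* and *Twist1* between 3W-PSCs and mono-PSCs held in all 14.

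Leaving out 1 library moved the members called to between 6 and 7 (3W-PSCs against mono-PSCs) and between 3 and 6 (3W-PSCs against 2W-PSCs, 6 without replicate 2 of 2W-PSCs). All genes called moved to 61 to 233 of 2W-PSCs against mono-PSCs, and to 497 to 2107 of 3W-PSCs against 2W-PSCs. Between 2W-PSCs and mono-PSCs, all genes called were 177 with no filter, 262 with all 12 libraries in one fit and 275 by DESeq2, against 111. The causes were not tested.

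With the replicate number as a block, 752 genes were called between 3W-PSCs and 2W-PSCs, against 1230, and 6, 1 and 3 members in 3W-PSCs against mono-PSCs, 2W-PSCs against mono-PSCs and 3W-PSCs against 2W-PSCs. Deviations of same-numbered libraries correlated at −0.048 to 0.338, not above 0.1 in every pair of any comparison, so the numbers were taken as labels only. At these depths *Hmga1* outside 3W-PSCs rests on 2 to 20 counts per library.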
